A study of Mus musculus with 6 samples.

Results

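The transcriptome of the control mesonephros of male mouse embryos at embryonic day 16.5 was described from 3 libraries of the 6 in the study, taken because they carry the control label. The controls had the genotype Osr2Cre+;Gata2-flox/+, so they carried the Cre recombinase and 1 floxed Gata2 allele beside 1 unfloxed allele, and they are not wild-type embryos. The remaining 3 libraries, in which both Gata2 alleles were to be removed from the Osr2-Cre lineage, were not used and no groups were compared. The dissected mesonephroi were snap frozen and still held the region of the mesonephric tubules, and RNA was captured by its poly(A) tail before sequencing. The labels do not state whether the 3 controls came from separate embryos or litters, so the spread between them may be partly technical.

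In males the mesonephros is a transient organ whose main duct, the Wolffian duct, is kept under androgens and becomes the epididymis, the vas deferens and the seminal vesicle. The duct epithelium is wrapped in mesenchyme, which responds to androgens, sends growth factors to the epithelium, and later forms the smooth muscle and connective tissue of the duct. GATA2 is a zinc finger transcription factor of the urogenital mesenchyme and of blood cell precursors, and Osr2 encodes a zinc finger factor of the mesenchyme around the duct, where its Cre driver is active.

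The table listed 14366 genes. The 3 control columns, deposited as TPM-like values with 1 scale per library, were whole reads divided by the length of the gene in the genome, introns included. If only reads in exons were counted, these values put genes with long introns too low when genes are set side by side. Whether reads in introns were counted is not stated. If they were, the levels per transcript length used below could put such genes too high. Reads were recovered for 14005 genes, which amounted to 11992865, 15556899 and 18706109 in control replicates 1, 2 and 3. Unless another scale is named, a level here is in TPM (reads per transcript length, scaled to one fixed total in every library) computed from these reads and the length of the gene's longest coding transcript. Values in a series of 3 are in the order of control replicates 1, 2 and 3, and ± is the SD over the 3 libraries (n = 3). A count of 3 reads on a transcript of 1 kilobase corresponds to 0.619, 0.469 and 0.392 TPM, so levels below about 1 TPM rest on few reads, and this floor covers counting error only.

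**Figure D1:**
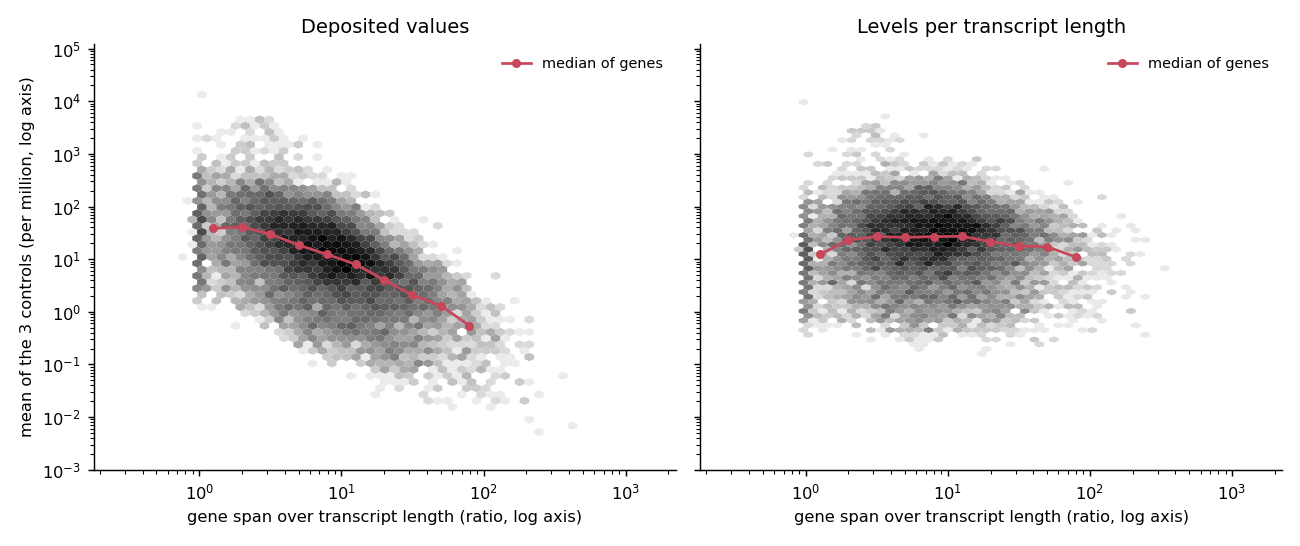
Each panel plots the mean of the 3 controls (TPM or deposited value, log axis) against the ratio of a gene's span in the genome to the length of its longest coding transcript (log axis), with darker cells for more genes and a red line for the median of genes. The deposited values (left) fell as introns took more of the gene, from a median of 29.3 at a ratio of 2 to 5 to 1.63 at 20 or more, and the levels per transcript length (right) went from 27.8 to 17.6 TPM.

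The change of scale matters for single genes. Ptn, which encodes the growth factor pleiotrophin and has long introns, stood at 92.5 on the deposited scale and 951 TPM per transcript length. Fgfr2, a receptor for fibroblast growth factors whose annotated gene spans 2960900 bases, went from 0.613 on the deposited scale to 117 TPM. Gata2 hardly moved, with 465 on the deposited scale and 472 TPM. The Spearman correlation of level with gene span across genes, which are not independent replicates, was -0.62 for the deposited values and -0.19 for the levels per transcript length.

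Control replicate 1 stood apart from the other controls. The Pearson correlation of log2(TPM + 1) across 13308 genes was 0.995 between replicates 2 and 3, against 0.983 and 0.981 for the pairs with replicate 1. Control replicate 1 was the library farthest from the other pair for 58.1% of these genes. It held the largest shares of globin, clustered histone and mitochondrially encoded transcripts.

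The labels were first checked against marker genes. All 4 Y-linked genes examined were detected in every library, which fits the male label, with Eif2s3y at 114, 119 and 78.6 TPM and Ddx3y at 42.01, 46.6 and 44.2 TPM. Markers of mesenchyme had the highest summed level of the cell type lists in every library. Such a sum depends on the genes listed, and this list includes abundant collagen genes. Of the 32 duct epithelium markers with a level, 28 averaged 10 TPM or more, as did 69.4% of all genes. In such bulk samples, fewer cells of a type and less RNA per cell cannot be told apart.

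Transcripts of many genes were detected. A mean of 1 TPM or more was reached by 13308 of the 14005 genes, and 12941 reached it in all 3 libraries. At 10 TPM the mean-based count was 9716, at 100 TPM it was 1819, and 122 genes averaged 1000 TPM or more. The distribution was steep, since the 100 most abundant genes held 29.2%, 28.1% and 27.3% of all TPM and the 1000 most abundant genes 58.1 ± 0.243%.

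Mitochondrially encoded transcripts, which specify subunits of the respiratory chain, took 6.19, 4.47 and 3.85% of TPM. The share was highest in control replicate 1 and averaged 4.84 ± 1.21%, against 17.6% of the deposited values, where genes without introns weigh more. The highest of the 11 genes was mt-Co1, a subunit of cytochrome c oxidase, at 17092, 14103 and 12516 TPM, and it was also the most abundant gene of the table. mt-Cytb, the cytochrome of complex III, followed at 13098, 9473 and 8104 TPM. The lowest was mt-Nd3 at 16.00, 9.43 and 5.25 TPM, and mt-Co2 and mt-Co3 were also low, at means of 48.9 and 39.3 TPM. mt-Atp6 was at 52.4, 17.7 and 16.3 TPM, and its mean of 28.8 TPM fell to 16.98 TPM without control replicate 1. At least 97.99% of the 50-base windows of these 4 transcripts also occur in transcripts of other annotated genes, so their levels are uncertain. mt-Co1 shares 51.1% of its windows and mt-Nd4 62.2%, so the level of mt-Co1 and the share of the class are uncertain too. mt-Cytb shares none.

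Transcripts for the proteins of the cytosolic ribosome were the largest class. The 78 genes together took 15.7, 16.6 and 16.3% of TPM, so this share was nearly the same in the 3 libraries. Of the 15 most abundant nuclear genes, 12 encode ribosomal proteins. This set depends on the length used, since 9 of the 15 are also in the top 15 on the deposited scale and 6 with exon-union length. Eef1a1, the elongation factor that brings aminoacyl-tRNA to the ribosome, was the highest at 9238, 10089.9 and 10171 TPM. Rplp1, a protein of the ribosomal stalk, followed at 6922, 6852 and 6849.6 TPM, then Tpt1, the translationally controlled tumour protein, at 6059.6, 5879 and 5604 TPM and Rps12 at 5312, 5428 and 5423 TPM. These 4 did not overlap, so their order held in every library. Rpl13 came next at 3709, 5416 and 5535 TPM, a wide range set by its low value in control replicate 1. Others among the 15 were Rps18, Rps15, Rps26, Rps7, Rpl26, Rplp0 and Rpl10, with means from 4719 down to 3297 TPM. From Rps26 down to Rpl10, in the order named, the ranges of neighbours overlapped, so their order is not resolved. Actb, the cytoplasmic actin, was also among the 15, at 3257, 3505 and 3719 TPM.

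Many of these genes have near-identical copies among annotated genes. Of the 78 ribosomal protein genes, 72 share at least 10% of their 50-base windows with transcripts of other annotated genes, so the way their reads were assigned can matter. A larger shared part did not go with a lower level over the class, since the median was 959 TPM for the 6 genes under 10% and 2558 TPM for the 14 at 80% or more. Single genes stood apart. Rpl24, with 81.7% shared windows, was listed at 4.57, 6.002 and 6.17 TPM. Rps3a1, with 71.01%, was at 645, 1988 and 621 TPM, with control replicate 2 far above the others. Eef1a1 shared 60.6% and Tpt1 41.96%. Levels of these genes are therefore uncertain.

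Globin transcripts, which come from red blood cells, took 0.938, 0.329 and 0.366% of TPM. The share of control replicate 1 was more than 2 times that of either other library, and the mean fell from 0.544 to 0.348% without it. On the deposited scale the mean was 1.11%. Adult-type Hbb-bs and Hba-a1 led, at 4582, 1335 and 1415 TPM and 3802, 1463 and 1699 TPM. The embryonic genes Hbb-y and Hba-x were far lower, at 18.2, 12.8 and 36.3 and 5.66, 5.85 and 7.33 TPM, and for these control replicate 3 was the highest. At least 58.3% of the windows of each of the 4 adult-type genes also occur in transcripts of other annotated genes, so the split between copies is uncertain.

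The promoters of the highest alpha and beta globin gene are shown because all 4 adult-type globin genes were highest in control replicate 1. The 100 bases before the RefSeq transcription start (GRCm38.p6) are given 5′ to 3′, on the plus strand at chr11:32283572-32283671 for Hba-a1 and on the minus strand at chr7:103827929-103828028 for Hbb-bs, with capitals for TATAA between 40 and 21 bases before the start and for CCAAT anywhere in the window:
Hba-a1: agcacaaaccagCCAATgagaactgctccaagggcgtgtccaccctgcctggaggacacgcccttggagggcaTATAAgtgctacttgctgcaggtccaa
Hbb-bs: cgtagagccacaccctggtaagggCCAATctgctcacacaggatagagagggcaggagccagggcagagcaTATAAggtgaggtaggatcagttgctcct
The letters TATAA, read on the gene's strand, occur in that stretch in 5 of the 6 globin genes with a level and in 3.31% of all 32851 promoters of the RefSeq table. The letters CCAAT on either strand (ATTGG on the other) occur in 5 of the 6 and in 18.9% of all. These motifs do not overlap each other in the sequences shown.

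**Figure D2:**
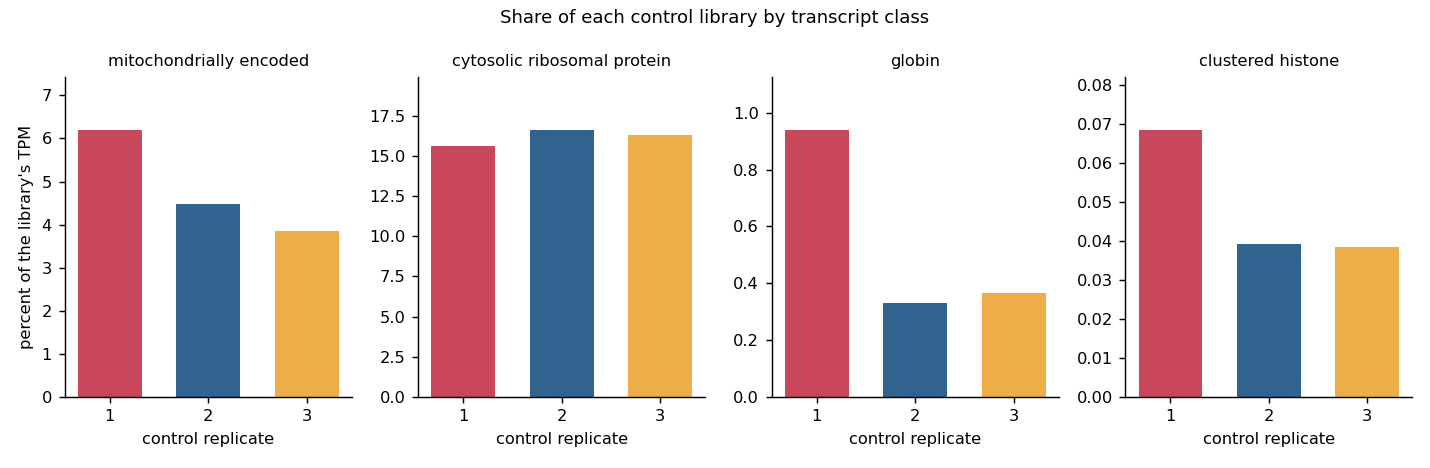
Bars give the percent of each control library's TPM (per transcript length) in 4 transcript classes, with 1 bar per library and each axis starting at 0. Ribosomal protein transcripts differed little between libraries, and control replicate 1 had the tallest bar for mitochondrially encoded (6.19%), globin (0.938%) and clustered histone transcripts (0.0683%).

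Gata2 was among the most abundant transcription factor genes of the control tissue. It was at 401, 469.6 and 545 TPM, a mean of 472 ± 72.2 TPM over 6945, 10731 and 14917 reads, and ranked 259 of 14005 genes, with ranks from 236 to 301 in single libraries. Control replicate 1 was the lowest and control replicate 3 the highest. The gene lies at chr6:88193891-88207032 on the plus strand (GRCm38, GENCODE M21). Since the controls carry 1 floxed allele and the recombinase, this is not the level of a wild-type embryo, and reads of the floxed and unfloxed allele cannot be told apart here. Among the related factors, Gata6 was at 50.9, 84.4 and 89.5 TPM, Gata3, a factor of the duct epithelium, at 26.7, 17.4 and 17.9 TPM and Gata4, a factor of gonadal somatic cells, at 1.70, 2.94 and 15.1 TPM. The cofactor genes Zfpm1 and Zfpm2, whose proteins bind GATA factors, averaged 44.2 and 27.6 TPM.

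RefSeq gives Gata2 a pair of start sites, and both promoters are shown because it is the gene the study removes. Each sequence is the 100 bases before the start on the plus strand (GRCm38.p6), the first at chr6:88193791-88193890 and the second at chr6:88198564-88198663, with CCAAT and its reverse complement ATTGG in capitals:
Gata2 first: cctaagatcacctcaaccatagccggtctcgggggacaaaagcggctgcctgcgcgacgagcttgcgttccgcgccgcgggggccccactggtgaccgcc
Gata2 second: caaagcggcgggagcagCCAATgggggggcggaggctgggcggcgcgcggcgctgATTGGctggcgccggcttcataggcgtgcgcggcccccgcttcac
The first window holds neither motif. The second holds 2 CCAAT motifs, 1 on each strand, which do not overlap. Neither window has TATAA between 40 and 21 bases before the start. The table gives 1 level per gene, so the use of the 2 promoters was not measured.

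Osr2, whose regulatory sequences drive the recombinase, was at 242, 307 and 354 TPM, and its relative Osr1 at 33.01, 80.9 and 82.9 TPM. Both were lowest in control replicate 1.

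Of 614 transcription factor genes listed by family, 509 had a level and 335 of these (65.8%) averaged 10 TPM or more, near the 69.4% of all genes. The family sums together took 2.62, 2.79 and 2.87% of TPM. The highest were general and ubiquitous factors, but this order rests on the transcript lengths, and 6 of the 15 highest are also among the 15 highest on the deposited scale. Ybx1, Ctnnb1, Hmgb1 and Btf3 are not. Ybx1, a cold-shock domain protein that binds DNA and RNA, was at 856, 1141 and 1212 TPM and lay above the next gene in every library. Ctnnb1, the beta-catenin that carries Wnt signals and links cadherins, was at 682, 774 and 749.9 TPM. Hmgb1 and Hmgb2, which bend DNA, averaged 664 and 364 TPM, and Btf3, a basal factor that also takes part in protein sorting, averaged 652 TPM.

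Below these came regulators with a narrower known role. Maz, a zinc finger factor, was at 444, 488 and 540.3 TPM and Id3, an inhibitor of basic helix-loop-helix factors, at 400.4, 523 and 530.0 TPM, level with Gata2. Tsc22d1, a leucine zipper protein, was at 450.2, 369 and 370.2 TPM and Tcf3, the E protein that pairs with tissue-specific helix-loop-helix factors, at 331, 372 and 393 TPM. Nr2f2, the nuclear receptor COUP-TFII of mesenchyme, was at 369.9, 311 and 336 TPM. Tcf21, a helix-loop-helix factor of visceral mesenchyme, was at 326, 323 and 362 TPM, and Tbx2, a T-box repressor, at 284, 317 and 349.6 TPM. Gtf2i, a general transcription factor, and Ybx3, a relative of Ybx1, averaged 324 and 316 TPM. Ranges over the 3 libraries overlapped for 12 of the 14 neighbouring pairs in this order, so that only Ybx1 above Ctnnb1 and Btf3 above Maz were separated from their neighbour. Btf3, Hmgb1, Ybx1 and Hmgb2 share 58.6%, 40.9%, 25.1% and 21.9% of their windows with other annotated genes, and their levels are less sure than those of Gata2, which shares none.

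**Figure D3:**
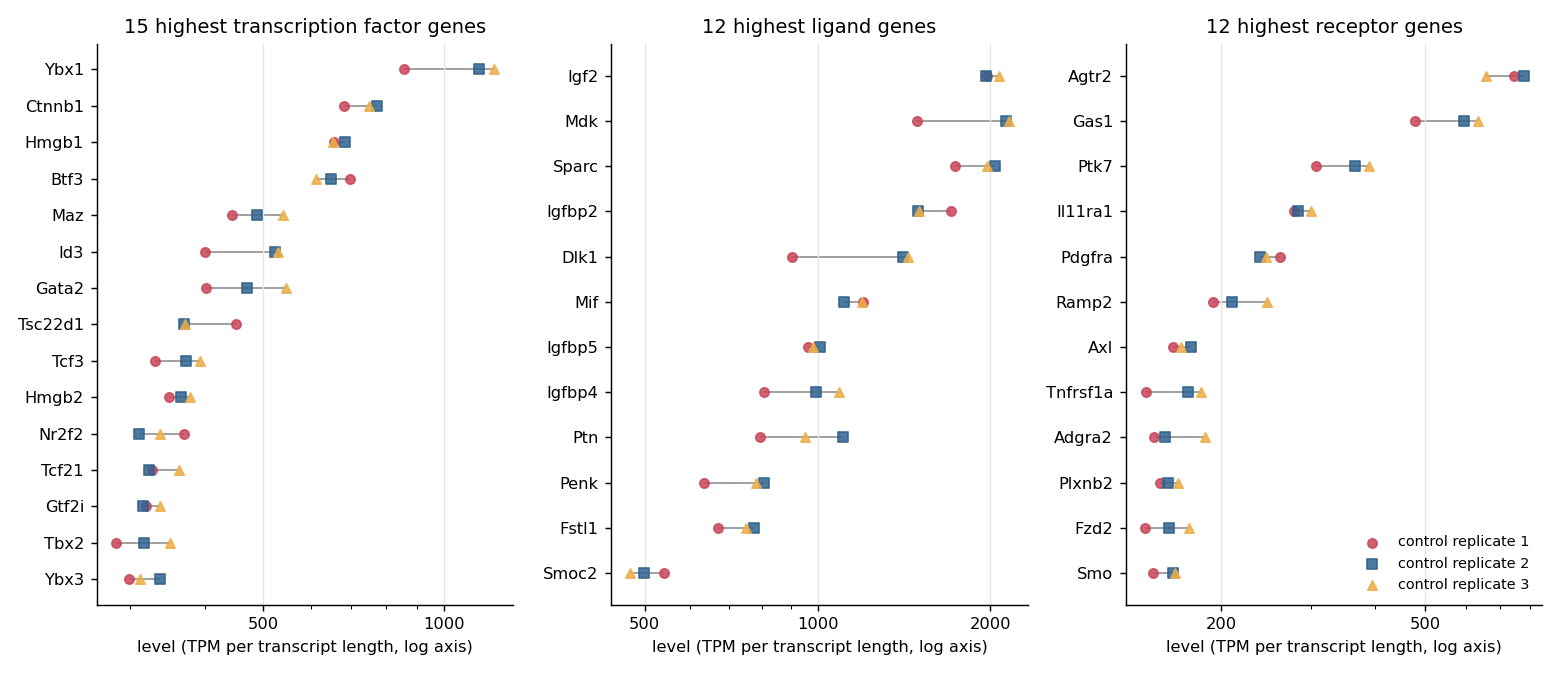
Points give the level in each of the 3 control libraries (TPM per transcript length, log axis) of the 15 highest transcription factor, 12 highest ligand and 12 highest receptor genes, in order of their mean, with a grey line from the lowest to the highest library. Gata2 is the seventh transcription factor with a mean of 472 TPM, and control replicate 1 is the lowest point of Gata2, Mdk, Dlk1 and Gas1.

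The leading member differed from family to family. Among basic leucine zipper genes it was Atf4, a factor of the integrated stress response, at 277, 313 and 309 TPM. Jun of the AP-1 complex followed at 180.4, 326 and 276 TPM. The TALE homeobox genes were led by Meis2, which encodes a partner of Hox proteins, at 198, 196 and 187 TPM. Sox12 led the Sox genes at 162, 173 and 193 TPM, Foxp4 the forkhead genes at 107, 127 and 135 TPM and Erf the Ets genes at 107, 127 and 136 TPM. Among the other homeobox genes Six5 was the highest at 122, 123 and 133 TPM, before Emx2, which the Wolffian duct needs, at 93.99, 81.5 and 86.3 TPM. Eya3, a phosphatase and coactivator, led the paired box and Eya genes at 31.1, 29.7 and 31.7 TPM, above Pax8 and Pax2, factors of the duct epithelium, at means of 22.3 and 11.1 TPM.

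Hox genes, which mark position along the body axis, spanned a wide range of levels. Of the 35 with a level, 28 averaged 10 TPM or more and 5 averaged 100 TPM or more, where 69.4% and 12.99% of all genes did. The sum over all of them was 1796, 1861 and 1952 TPM. The highest were Hoxc8 at 169, 194 and 202 TPM, Hoxa10 at 175, 181 and 170.4 TPM and Hoxa5 at 134, 170.3 and 193 TPM, and Hoxc6 and Hoxa9 averaged 155 and 111 TPM. The ranges of Hoxc8, Hoxa10 and Hoxa5 overlapped, so their order is not resolved.

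By paralogue group, the sums, over 1 to 4 genes each, were lowest at both ends of the series. Groups 8, 9 and 10 reached 311 ± 12.4, 286 ± 9.62 and 266 ± 3.52 TPM. Groups 5 and 6 were nearly as high, at 241 ± 25.5 and 266 ± 6.88 TPM, while group 7, with 2 genes, was at 96.3 ± 17.1 TPM, so the series has no single peak. Group 11 was at 136 ± 4.31 TPM, while group 13 stood at 9.61 ± 4.03 TPM and group 1 at 2.36 ± 0.604 TPM. The step down from group 11 to group 12 and 13 was present in every library. Within the Hoxd cluster, for instance, Hoxd11 was at 70.9, 73.00 and 64.9 TPM and Hoxd12 at 10.8, 7.96 and 8.71 TPM. Hoxa13 was at 6.29, 1.63 and 1.04 TPM, highest in control replicate 1. Genes of the Hoxa cluster summed to 703 ± 73.3 TPM, those of Hoxc to 570.1 ± 17.8 TPM, those of Hoxd to 346 ± 14.8 TPM and those of Hoxb to 250.4 ± 11.6 TPM. These ranges did not overlap, although the clusters hold different numbers of genes with a level, from 7 to 11.

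**Figure D4:**
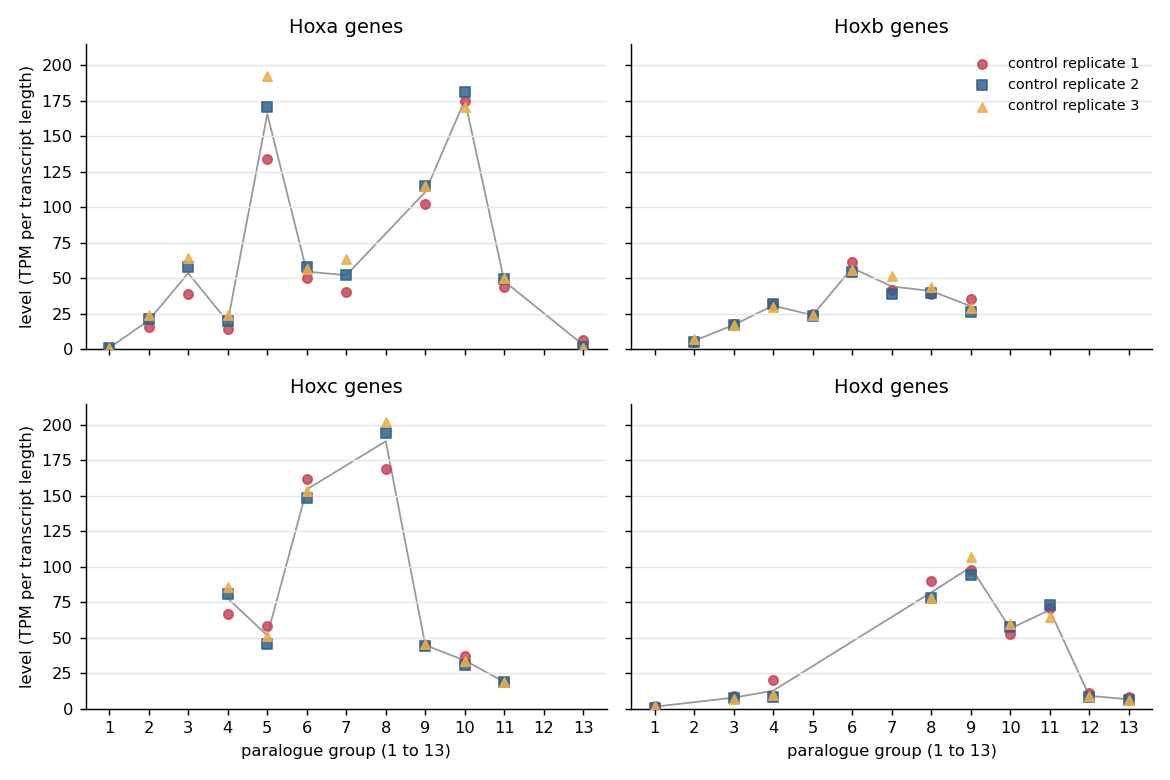
Each panel is 1 Hox cluster, with paralogue group from 1 (anterior) to 13 (posterior) on the horizontal axis and level in TPM per transcript length on the vertical axis. Points are the 3 control libraries and the grey line joins the means of genes with a level. Hoxc8 (188 TPM), Hoxa10 (175 TPM), Hoxa5 (166 TPM) and Hoxc6 (155 TPM) are the highest, Hoxa7 and Hoxb7 lie lower at 52.1 and 44.2 TPM, and the genes of group 13 are below 10 TPM.

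Secreted ligands were led by growth factors of the insulin-like family and heparin-binding factors. Of 330 ligand genes and secreted modulators listed, 233 had a level, and 135 of these (57.9%) averaged 10 TPM or more, a smaller share than the 69.4% of all genes. Igf2, the fetal growth factor expressed from the paternal allele, was the highest at 1970.4, 1968 and 2069 TPM. Mdk, which encodes midkine, followed at 1492, 2131 and 2156 TPM, and Sparc, a matricellular protein, at 1736, 2039.8 and 1977 TPM. The ranges of these 3 overlapped. On the deposited scale 9 of the 12 highest ligand genes stay among the 12 highest. Igf2 shares 75.9% of its windows with other annotated genes, which leaves its level uncertain.

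Binding proteins of the insulin-like growth factors were abundant as well. Igfbp2 was at 1709, 1495 and 1501 TPM, Igfbp5 at 964, 1009 and 984 TPM and Igfbp4 at 807, 996 and 1088 TPM. Dlk1, a non-canonical Notch ligand that is also paternally expressed, was at 903, 1409 and 1435 TPM, low in control replicate 1. Mif, a cytokine with several processed copies and 76.4% shared windows, averaged 1170.5 ± 51.2 TPM. Ptn, a relative of midkine, was at 795, 1108 and 949.6 TPM. Penk, the precursor of enkephalin peptides, was at 634, 807 and 781 TPM, and Fstl1 and Smoc2, extracellular modulators of BMP and growth factor signals, averaged 733 ± 54.5 and 503 ± 34.3 TPM. In this order 7 of 11 neighbouring pairs overlapped. Igfbp2 lay below Sparc and above Dlk1, Mif above Igfbp5, and Smoc2 below Fstl1 in every library.

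The signalling ligands proper were lower. Wnt5a, a non-canonical Wnt of mesenchyme, led the Wnt genes at 264, 211 and 228 TPM, before Wnt6 at 142, 125 and 143 TPM and Wnt4 at 74.1, 116 and 123 TPM. Sfrp1, a secreted Wnt antagonist, was higher than any Wnt at 323, 356 and 363 TPM. In the BMP and GDF family Bmp1, a protease that processes procollagen, was the highest gene with a level, at 269, 324 and 342 TPM. Bmp4, the highest true BMP ligand with a level, was at 37.97, 49.1 and 52.3 TPM. Gdf10 of the same family has no level here and averaged 204 on the deposited scale, against 48.6 for Bmp4. Ltbp4, which stores latent TGF-beta, was at 189.8, 206 and 236 TPM. The FGF genes were low, with Fgf11, an intracellular member, the highest at 35.1, 42.3 and 46.8 TPM. Fgf10 and Fgf7, mesenchymal ligands that act on epithelium, averaged 8.72 and 3.85 TPM.

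Other families ran from moderate to near the floor. Cxcl12, the chemokine that attracts CXCR4-bearing cells, was at 194, 194 and 176 TPM. Vegfb and Vegfa, endothelial growth factors, averaged 144 ± 29.6 and 135 ± 18.4 TPM, and Efnb1, an ephrin, averaged 264 ± 36.98 TPM. Egfl7, a secreted protein of endothelium, led the EGF-like genes at 78.9, 84.3 and 93.5 TPM. Among hedgehog genes Shh was at 15.1, 9.44 and 7.20 TPM, highest in control replicate 1, and Ihh averaged 1.88 TPM.

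Receptor genes summed to a lower level than ligand genes, but the median receptor gene was higher than the median ligand gene. Of 241 receptor genes listed, 216 had a level, and 146 of these (67.6%) averaged 10 TPM or more, near the share of all genes. On the deposited scale 91 reached 10, and 6 of the 12 highest were also among the 12 highest there. The summed level of the receptor list was 0.915, 0.935 and 0.945% of TPM, against 2.12, 2.39 and 2.40% for the ligand list. The median gene was at 20.1 TPM in the receptor list and 15.03 TPM in the ligand list, which also holds abundant binding proteins and modulators. The lower sum therefore does not describe the typical receptor gene. Agtr2, the type 2 angiotensin receptor found in fetal mesenchyme, was the highest at 745, 779 and 659 TPM. Gas1, a membrane co-receptor for hedgehog ligands, was next at 477, 597 and 634 TPM, and Ptk7, a pseudokinase of planar cell polarity and Wnt signalling, came after it at 307, 364 and 388 TPM. The 3 did not overlap in any library pair, so this order held throughout.

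The promoters of this leading pair are shown because both genes stand above all other listed receptors here and on the deposited scale, where Gas1 at 2064 lies above Agtr2 at 1868. The sequences are the 100 bases before the RefSeq start (GRCm38.p6), for Agtr2 on the plus strand at chrX:21484524-21484623 and for Gas1 on the minus strand at chr13:60177536-60177635, with TATAA between 40 and 21 bases before the start and CCAAT in capitals:
Agtr2: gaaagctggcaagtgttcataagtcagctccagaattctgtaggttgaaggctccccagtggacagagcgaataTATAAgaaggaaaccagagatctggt
Gas1: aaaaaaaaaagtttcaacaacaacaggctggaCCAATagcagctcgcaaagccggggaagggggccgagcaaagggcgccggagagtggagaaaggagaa
Agtr2 has the TATAA letters and no CCAAT on either strand, and Gas1 has CCAAT and no TATAA. Of 164 receptor genes with a promoter entry, 5 have TATAA there and 27 have CCAAT on either strand, or 3.05% and 16.5%. Over all genes with a level and a promoter entry the shares are 2.10% and 22.6%. The shares given with the globin genes are over all RefSeq promoters, also those of genes without a level.

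Il11ra1, the interleukin-11 receptor, was at 277, 282 and 299 TPM, but 46.5% of its windows also occur in other annotated genes. Pdgfra, the receptor that marks many mesenchymal cells, was at 260.3, 238 and 244 TPM, more than Pdgfrb at 89.98, 112 and 116 TPM. Ramp2, a partner of the adrenomedullin receptor of endothelium, was at 193, 209.7 and 246 TPM. Axl, a kinase that binds Gas6, Tnfrsf1a, a tumour necrosis factor receptor, Adgra2, an adhesion receptor, and Plxnb2, a semaphorin receptor, averaged between 158 and 167 TPM. Fzd2, a Wnt receptor, and Smo, the signal transducer of the hedgehog pathway, were level at 158 and 157 TPM. From Ramp2 down, Ramp2 above Axl was separated in every library, and the ranges of all later neighbours overlapped.

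Other receptor families had these leading members. Fgfr1 and Fgfr2, receptors for fibroblast growth factors, were at 117, 138 and 155 TPM and 131, 106 and 113 TPM. Eng, a TGF-beta co-receptor of endothelium, led its superfamily at 125, 121 and 139 TPM. Igf2r, which clears IGF2, was at 118, 126 and 127 TPM, above Igf1r, which signals for it, at 60.7, 45.9 and 43.7 TPM. Notch3 and Notch2 were close at 51.6 ± 7.36 and 49.7 ± 6.47 TPM.

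Ligands and receptors known to pair were set side by side per transcript length. Gas6 was at 348, 431 and 422 TPM and its receptor Axl at 161, 175 and 167 TPM, above Tyro3 and Mertk of the same receptor family at means of 43.2 and 16.8 TPM. For hedgehog signals the receivers exceeded the ligand, since Shh averaged 10.6 TPM against 157 for Smo, 569 for Gas1 and 62.98 for Ptch1. Wnt5a at 234 TPM had its receptors Ptk7, Ryk, Ror2 and Ror1 at 353, 125, 42.1 and 26.8 TPM. Agtr2 had little ligand precursor beside it, with Agt, which encodes angiotensinogen, at 4.91, 2.81 and 4.63 TPM. Gdnf, a duct attractant of the early kidney, and its receptor Ret were both low, at 4.66, 3.02 and 2.45 TPM and 0.643, 0.487 and 0.144 TPM. Amhr2, the receptor for anti-Müllerian hormone, was at 17.7, 18.4 and 18.4 TPM. In these bulk samples the cells that carry each ligand or receptor were not resolved.

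Cell type marker lists spanned several orders of magnitude. Of 325 marker genes listed, 238 had a level, and each sum is over genes with a level. Mesenchyme markers came first, with a summed level of 13057, 14302 and 14228 TPM over 20 genes. The fibrillar collagen genes Col1a1, Col3a1 and Col1a2 were at means of 3165, 3045 and 2419 TPM, and Dcn, the proteoglycan decorin, at 1850.5, 1797 and 1589 TPM. Of these 20 genes 17 averaged 10 TPM or more, where 69.4% of all genes did. Tbx18, a factor of other urogenital mesenchyme, was the lowest at 0.176, 0.568 and 0.363 TPM.

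Smooth muscle genes summed to 2896, 2669.7 and 2924 TPM. Acta2, smooth muscle actin, led at 736, 520.5 and 579 TPM, and Myl9, Tpm1 and Flna, which other cells also express, followed at 542, 412 and 366 TPM. The genes of mature smooth muscle were lower, with Myh11, its myosin heavy chain, at 21.9, 14.9 and 18.4 TPM and Cnn1, calponin, at 11.9, 6.30 and 6.09 TPM. The lowest was Ldb3 at 0.504 TPM. Pericyte genes summed to 278, 275 and 277 TPM, with Mcam, Kcnj8, Notch3 and Abcc9 highest at 62.3, 62.1, 51.6 and 23.1 TPM and Higd1b lowest at 1.66 TPM.

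Epithelial markers were present at moderate levels. The duct epithelium list summed to 1762, 1559 and 1696 TPM over 32 genes. Krt8, a keratin of simple epithelia, was at 284, 228 and 236 TPM and its partner Krt18 at 247, 217 and 242 TPM, while Spint2, a protease inhibitor, and Krt19 averaged 198 and 156 TPM. Cdh1, the epithelial cadherin, was at 22.8, 11.8 and 13.7 TPM and Ret, the lowest, at 0.424 TPM. The coelomic epithelium list shares Krt8 and Krt19 with it and summed to 1086, 1192 and 1113 TPM. Wt1, a zinc finger factor of the coelomic lining and nearby mesenchyme, was at 242, 256 and 242 TPM, Podxl, a sialomucin, at 122 TPM and Upk3b, a mesothelial uroplakin, at 89.2, 117 and 102 TPM. Lrp2 was the lowest at 4.27 TPM. The Müllerian list of 6 genes was led by Wnt4, Pax8, Amhr2 and Lhx1, at 104, 22.3, 18.1 and 11.6 TPM, of which Pax8 and Lhx1 are also markers of the Wolffian duct. Wnt7a, the defining gene of Müllerian epithelium, was the lowest at 1.76, 1.58 and 1.85 TPM.

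Vascular and blood cell markers were detected too. The endothelial list summed to 888, 987 and 1049 TPM, led by Ramp2, Eng, Egfl7 and Plvap at 216, 128, 85.5 and 84.5 TPM, with Vwf lowest at 2.19 TPM. Lymphatic genes were low, with Pdpn, which mesothelium also expresses, at 45.3 TPM, Lyve1, Flt4 and Reln at 8.16, 7.84 and 1.23 TPM, and Prox1, the lymphatic master factor, at 0.544 TPM. Macrophage genes summed to 572, 680.1 and 614 TPM. The complement genes C1qa, C1qc and C1qb were at 92.1, 87.2 and 80.3 TPM, Fcer1g was at 57.9 TPM and Cd14 was lowest at 5.02 TPM. The mast cell list was dominated by Gata2, which it holds because mast cells also express it. The protease genes that define mast cells were far lower, with Cma1, Tpsb2 and Cpa3 at 25.98, 22.8 and 20.4 TPM and Tpsab1 at 1.53 TPM, so the mean of Gata2 was more than 15 times that of any of them.

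The erythroid list was 9419, 3306 and 3685 TPM, nearly all globin, and its mean share of TPM went from 0.547 to 0.350% without control replicate 1. Beyond the globins, Alas2, the heme synthesis enzyme of red cells, was at 32.1, 14.2 and 17.3 TPM and Slc4a1, the red cell anion exchanger, lowest at 1.68, 0.722 and 0.919 TPM, again highest in control replicate 1. Neutrophil genes were also highest there, with sums of 31.8, 12.8 and 10.1 TPM, S100a8 and S100a9 at 11.5, 6.75 and 3.76 TPM and 13.9, 3.01 and 4.02 TPM, Ngp and Camp at 1.41 and 1.32 TPM and Ltf at 0.318 TPM. Without control replicate 1 their mean share went from 0.00182 to 0.00114% of TPM. The part of blood cells in the difference of control replicate 1 from the other libraries was not tested. Lymphocyte genes summed to 6.92, 13.5 and 8.67 TPM over 3 genes, with Cd79b, Ptprc and Cd79a at 4.41, 3.40 and 1.90 TPM.

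**Figure D5:**
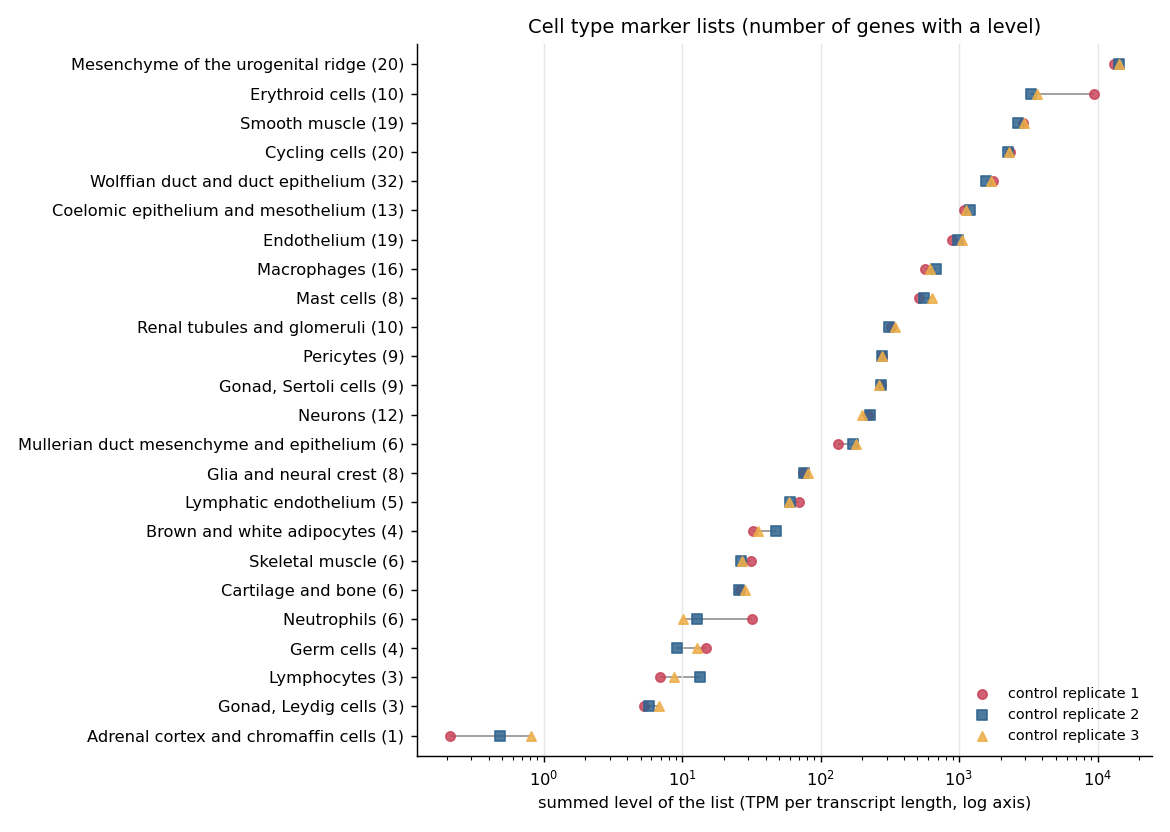
Each row is a list of cell type markers with the number of its genes that have a level, ordered by mean, and points give the summed level in each control library (TPM per transcript length, log axis), joined from lowest to highest by a grey line. Mesenchyme is the highest and Leydig and adrenal cell markers are the lowest lists. Erythroid cells (9419 TPM in control replicate 1) and neutrophils show the widest gaps between libraries among lists that averaged above 10 TPM.

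Marker lists of neighbouring organs ranged from near the floor to above the level of the pericyte list. Of 10 Leydig cell markers listed, 3 had a level, with sums of 5.30, 5.72 and 6.75 TPM. Star was at 3.41 TPM, Nr5a1 at 1.42 TPM and Cyp11a1, the enzyme that starts steroid synthesis, at 1.17, 0.516 and 1.60 TPM. The Sertoli list summed to 272, 272 and 264 TPM and was led by Cldn11, Clu, Inha and Aard, at 85.3, 84.7, 38.8 and 22.3 TPM, of which Clu and Cldn11 are known from many cell types, and its lowest member was Nr5a1. Of 11 germ cell genes listed, 4 had a level. Rnf17, Dazl and Ddx4 were near the floor at 1.29, 0.801 and 0.764 TPM, and Nanos3 was higher at 9.47 TPM. Th, the enzyme of catecholamine synthesis and the one adrenal or chromaffin marker with a level, was at 0.212, 0.481 and 0.803 TPM. Of 19 renal tubule and glomerular markers listed, 10 had a level, with sums of 321, 311 and 342 TPM. Podxl, Cdh16, Synpo and Fxyd2 led at 122, 78.6, 37.1 and 32.7 TPM. Podxl is also in the coelomic epithelium list and Cdh16 in the duct epithelium list. Cubn, which defines proximal tubules, was the lowest at 0.204 TPM.

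Neuronal markers summed to 218, 228 and 199.9 TPM, with 3 of 12 at 10 TPM or more, against 69.4% of all genes. Stmn2, Uchl1, Prph and Map2 led at 107, 65.2, 14.1 and 8.81 TPM, and glial genes, apart from Ngfr at 55.9 TPM, were below 10 TPM, with Erbb3 and Fabp7 at 6.30 and 3.87 TPM and Foxd3 at 0.577 TPM. The skeletal muscle genes Tnnt3, Tnni2, Actn3 and Mylpf averaged 9.10, 8.39, 6.44 and 3.59 TPM and Myh8 0.303 TPM. Cartilage and bone genes were led by Sox9, Sp7, Runx2 and Col9a1 at 11.4, 5.95, 2.68 and 2.29 TPM, with Ibsp at 2.21 TPM. Of the adipocyte genes, Lpl was at 24.04 TPM, Fabp4 at 7.47 TPM, Cd36 at 6.07 TPM and Pparg at 0.848 TPM.

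All 20 markers of the cell cycle averaged 10 TPM or more, as did 69.4% of all genes. Pcna, the clamp of the replication fork, was at 387, 395 and 380.3 TPM and Top2a, a topoisomerase, at 231, 207 and 204 TPM, with Ccnb2 and Mcm3 at 151 and 147 TPM and Cenpf lowest at 25.9 TPM. Their sum was 2347, 2267 and 2290.4 TPM, nearly equal in the 3 libraries.

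Genes of the extracellular matrix took 2.45, 2.73 and 2.74% of TPM over 51 genes. Col1a1 was at 2656, 3336 and 3502 TPM, Col3a1 at 2974, 3132 and 3029 TPM and Col1a2 at 2186, 2516 and 2556 TPM. Col3a1 was the steadiest of the 3, and Col1a1 and Col1a2 were lowest in control replicate 1. The cytoskeletal genes took 2.38, 2.44 and 2.48%, led by Actb, then Tmsb4x, an actin-binding thymosin, at 3563, 2933 and 2561 TPM and Tmsb10 at 2623, 2652 and 2639.9 TPM.

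The shares of other abundant housekeeping classes were close in the 3 libraries. Glycolytic genes took 0.656, 0.662 and 0.672% of TPM, led by Gapdh at 2429, 2185 and 2191 TPM. Chaperones took 1.21, 1.18 and 1.15%, led by Hsp90ab1, a cytosolic chaperone that also serves steroid receptors and was lowest in control replicate 1, at 1793, 2179 and 2301 TPM. Ptma, the chromatin-associated prothymosin alpha, was at 3126, 3194 and 3374 TPM, and Eef2, the factor that moves the ribosome along, at 1479.6, 1879.9 and 2093 TPM.

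Imprinted growth genes, expressed from 1 parental allele, took 0.630, 0.670 and 0.678% of TPM over 17 genes. Igf2 and Dlk1 were followed by Cdkn1c, a cell cycle inhibitor, at 710.0, 658 and 614 TPM. Retinoid genes were led by Aldh1a2, which makes retinoic acid in mesenchyme, at 624, 617 and 591 TPM, before Adh5, a general alcohol dehydrogenase, at 232, 213 and 214 TPM and Crabp1, a retinoic acid-binding protein, at 177, 225 and 239.9 TPM. Cyp26b1, which breaks retinoic acid down, was the lowest of the list at 5.78, 8.48 and 8.77 TPM.

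In the androgen and steroid pathway, the chaperone partner Fkbp4 of steroid receptors was the highest gene at 306, 343 and 355 TPM. Hsd11b2, which inactivates glucocorticoids, was at 62.7, 71.6 and 81.3 TPM, and Fkbp5, a known androgen and glucocorticoid target, at 57.1, 62.7 and 66.1 TPM. Esr1, the oestrogen receptor alpha, at 40.8, 36.4 and 32.2 TPM and Nr3c1, the glucocorticoid receptor, at 27.3, 27.4 and 26.2 TPM did not overlap. Pgr, the progesterone receptor, was the lowest at 1.91 TPM.

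The spread over the 3 libraries was small for most genes. Among the 13308 genes with a mean of 1 TPM or more, the median SD of log2(TPM + 1) was 0.14. The SD expected from the read counts alone had a median of 0.06. It is an expected value computed without the added 1, so these medians are not the same statistic. The highest library was under 1.5 times the lowest for 81.97% of genes and 2 times or more for 5.64%. Without control replicate 1 the median SD was 0.07, taken over control replicates 2 and 3 only. An SD over fewer libraries tends to be smaller, so part of this drop comes from the number of libraries. Genes at least 1.5 times higher in control replicate 1 than in the mean of the others numbered 1051, with a median GC content of 48.3% in their transcripts, and those at least 1.5 times lower numbered 536, with 54.04%, against 49.97% over all these genes. The longest transcripts of the lower genes had a median of 2161 bases and those of the higher genes 3283 bases, against 3403 over all. The part of base composition and length in this difference was not tested.

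The genes with the largest spread at a mean of 10 TPM or more were mostly histone genes of the clusters, whose transcripts normally end without a poly(A) tail. Hist1h3d was at 32.4, 4.25 and 3.14 TPM, Hist1h3i at 38.1, 4.18 and 4.76 TPM and Hist1h3e at 30.6, 3.18 and 6.87 TPM. Hist1h1b, Hist1h4k, Hist1h3a and Hist1h3h had SDs of log2 of 1.33, 1.16, 1.16 and 1.07. All 7 were highest in control replicate 1. The remaining gene of the 8, Tff3, a secreted trefoil peptide, was at 25.5, 2.54 and 3.97 TPM with the same pattern. This list rests on control replicate 1, since 2 of the 8 genes with the largest spread between replicates 2 and 3, Hist1h3a and Hist1h3e, are histone genes, and Rps3a1 leads there. The means of Hist1h3d, Hist1h3i, Hist1h3e, Hist1h1b, Hist1h4k and Tff3 without control replicate 1 were 3.69, 4.47, 5.02, 6.11, 7.98 and 3.25 TPM. These genes thus passed the limit of 10 TPM only through control replicate 1. Not every clustered histone gene followed, since Hist1h4i was lowest in control replicate 1, at 20.1, 36.1 and 33.6 TPM. Clustered histones as a class took 0.0683, 0.0391 and 0.0385% of TPM, and 0.167% on average of the deposited values. At the other end Tlk1, a kinase of chromatin assembly, was at 51.9, 51.8 and 51.9 TPM, and Arhgap28, Gjc1, Ccndbp1 and Anapc5 had means of 59.8, 116, 56.00 and 535 TPM. The 3 values of each of these 5 genes lay within 1% of each other.

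Genes whose reads could not be recovered have no level here, and numbered 361, with 10 listed transcription factors, 8 ligands and 4 receptors among them. The largest of the listed genes on the deposited scale was Gdf10, a TGF-beta family ligand, at 172, 217 and 221. Foxl2, a forkhead factor, stood at 107, 112 and 148 and Foxc1, a forkhead factor of mesenchyme, at 45.8, 48.8 and 58.7 on that scale. Each was highest in control replicate 3, and these values cannot be set beside the TPM levels of other genes.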

How the data were processed

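RNA-seq of poly(A)-selected RNA, primed with random hexamers, was given per the labels' protocols for 6 mesonephros samples, of which the 3 controls were used. The submitters' processing notes name the build GRCm38, STAR 2.7.11a, DESeq and DESeq2 without saying what each was used for. The sources used here do not give the quantifier, the strand setting or the rule for keeping genes. The deposited table holds a TPM-like value per gene and library, and the name of the table carries the annotation tag M10. It also holds the authors' log2 fold change and p-value of Gata2cKO against control, which were not used.

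The unit of the deposited TPM columns was worked out from the values. Multiplied by the gene's span in GENCODE M21 (GRCm38), the values of a library were multiples of 1 number. Of 10176 genes whose identifier version is the same in M21, 99.97% gave whole reads in all 3 controls, to within 0.01 read. In all, 11447 genes were whole with the M21 span, 837 with the span of some of their transcripts and 1721 with a span found by search, of which about 10.5 would be found by chance. The 361 other genes, with about 0.999% of the deposited total, were set aside. This differs from the design, which took the deposited TPM as scaled for transcript length. The sources used here do not say whether reads in introns were counted.

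Recovered reads were divided by the length of the longest coding transcript of M21 and scaled to 1 common total (TPM) over 14005 genes with Python 3.11.15 and pandas 2.3.3. No groups were compared and no test was made. SDs are over 3 libraries, and the spread uses log2(TPM + 1). The recovery of reads was checked on simulated data with the spans already known, and the search for spans was not simulated. Alternatives left out each library, changed thresholds, pseudocount, totals and scaling, and, chosen after seeing the data, used exon-union length, principal transcript length or the deposited values.

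Genes named are the 15 highest nuclear genes, the 15, 12 and 12 highest transcription factor, ligand and receptor genes with the highest of each family, the 4 highest and the lowest of each marker list, the 3 highest of 5 further classes, the 8 most and 5 least variable genes at 10 TPM or more, and Gata2 and Osr2. Some genes that this rule names are not reported here. Others were chosen after their values were seen. The members and lists were chosen with earlier results of these data known. Promoters are RefSeq sequences of GRCm38.p6, matched by symbol for 10683 of 14005 genes.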

Additional observations from a re-analysis of the deposited data

How the results depend on the processing

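Control replicate 1 set most of the spread. Leaving out 1 library at a time gave a median SD of log2(TPM + 1) of 0.0724 to 0.158, with the lowest value without control replicate 1, and a globin share of 0.348 to 0.652%. Dividing by the exon-union length moved the mitochondrially encoded share from 4.84 to 7.11%, the ribosomal protein share from 16.2 to 12.9% and the histone share from 0.0486 to 0.0715%, and kept 6 of the 15 highest nuclear genes. On the deposited values per gene span these shares were 17.6%, 18.3% and 0.167%, the globin share was 1.11%, 9 of the 15 nuclear genes remained, and receptor genes at 10 or more fell in number from 146 to 91. The ribosomal protein share was 17.02% of a total without mitochondrially encoded genes and 17.1% without globin genes as well, since the total is smaller. The counts of genes at 1 TPM or more and of transcription factor, ligand and marker genes at 10 TPM or more stayed within 1.5 times their value under every alternative run. These length alternatives were chosen after seeing the data. Of 56 named genes, the mean moved by more than the SD over libraries for 50 on the deposited values, 44 with the exon union, 23 with the principal transcript and 20 on rescaling without mitochondrially encoded and globin genes. No paired analysis was possible because only the control group was described. At the depth of these libraries 582 genes had fewer than 10 reads in at least 1 library, and 3 libraries limit every SD.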

Other observations

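Genes that respond within minutes to stimulation of cells differed between the controls. The list was written after the data were seen, so its counts describe these libraries. Of 32 immediate early and related genes with a level, 27 were lowest in control replicate 1 and 4 were highest there, whereas over all 13308 genes at 1 TPM or more control replicate 1 was the lowest library for 34.6%. Fos, a subunit of AP-1, was at 47.2, 109 and 82.6 TPM in control replicates 1, 2 and 3, and Egr1, a zinc finger factor, at 52.4, 106 and 102 TPM. Nr4a1, an orphan nuclear receptor, was at 27.1, 71.3 and 60.5 TPM, and Atf3, a stress-induced leucine zipper factor, at 12.3, 50.8 and 31.1 TPM. The median ratio of control replicate 1 to the mean of the others was 0.627 for the list and 1.04 for all genes. Rhob, a small GTPase gene that also responds quickly, was the most abundant of the list and did not follow, at 414, 381 and 388 TPM.

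Single genes of other kinds also differed between the controls, and those given here were chosen after their values were seen. Twist1, a helix-loop-helix factor, was at 66.1, 138 and 138 TPM, and Gata6 at 50.9, 84.4 and 89.5 TPM. Cdh1 at 22.8, 11.8 and 13.7 TPM, Actg2, the enteric smooth muscle actin, at 15.9, 4.69 and 7.54 TPM and Nr2f2 at 369.9, 311 and 336 TPM were highest in control replicate 1. The marker lists as a whole did not share one direction, with a median ratio of control replicate 1 to the mean of the others of 1.001 for mesenchyme, 1.13 for smooth muscle, 1.21 for duct epithelium and 0.926 for coelomic epithelium. Gata4 stood apart in control replicate 3, at 1.70, 2.94 and 15.1 TPM.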
